A study of Mus musculus with 2 samples.

Results

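The genes described here encode the nuclear-made parts of the mitochondrial oxidative phosphorylation machinery. They were chosen by symbol, as protein-coding mouse genes whose names begin with Nduf, Sdha to Sdhd, Uqcr, Cyc1, Cox4 to Cox8 or Atp5. The rule uses no measured value, but it was set with earlier results of these data known. The rule found 99 gene models among the annotated genes, of which 74 reached 20 spliced reads in the 2 libraries together, of 8361 genes in all that reached this minimum. Of the 74, 65 encode subunits and 9 encode assembly factors.

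Oxidative phosphorylation couples the oxidation of NADH and succinate to the making of ATP. Complex I (NADH dehydrogenase) and complex II (succinate dehydrogenase) pass electrons to ubiquinone, complex III (the cytochrome bc1 complex) passes them on to cytochrome c, and complex IV (cytochrome c oxidase) hands them to oxygen. The proton gradient that complexes I, III and IV build drives complex V, the ATP synthase. In macrophages the respiratory chain is known for its part in activation, since inflammatory stimuli shift these cells towards glycolysis and IL-10 has been linked to the upkeep of mitochondrial respiration. Subunits encoded in the mitochondrial genome come from genes without introns and cannot be read from spliced reads.

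RNA was sequenced from peritoneal exudate macrophages that had adhered to the dish, taken from C57BL/6JJcl mice that were male and had no stated genetic change. The cells were collected after an injection of thioglycolate, an irritant broth, into the peritoneum. One group was kept with interleukin 10 (IL-10), a cytokine that restrains inflammatory gene expression, at 100 ng/ml for 4 h, and the other was untreated; all cells had met thioglycolate and were selected by adherence. There was 1 library per group, so every ratio compares these libraries and not the conditions, and no p-value could be given. The number of mice and their age were not given in the sources used here.

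The measured value was the number of reads that cross an annotated intron, summed over the introns that belong to a gene alone. The IL-10 library held 3998954 junction reads and the untreated library 4035991, of which 3838466 and 3866718 lay on introns of named genes. A ratio is the IL-10 value over the untreated value after division by these named totals, with an exact conditional binomial (Clopper-Pearson) 95% interval. The intervals cover counting error only, and a read that crosses several introns is counted on each. Of 11 macrophage markers 9 were measured and Cd14 was at 0. Their summed reads, 61485 (IL-10) and 77957 (untreated), were mostly those of Lyz2 (31849 and 45047). Their median ratio was 0.966, with 4 intervals below 1 and 3 above (Mrc1, Itgam and Fcgr1). Of 8 neutrophil markers 7 were at 0 and Csf3r had 311 and 267 reads. Of 7 eosinophil and mast cell markers 2 were measured, with 96 and 59 reads (1.64, 1.17 to 2.31), of which Siglecf had 86 and 48 (1.805, 1.254 to 2.63) and Prg2, Epx and Mcpt4 were at 0. No B cell, T and NK cell or dendritic cell marker was measured. The 5 measured of 7 fibroblast and mesothelial markers had summed reads of 1250 and 1148. The part of these other cells in the values below was not tested. In such bulk RNA, fewer cells of a type and less RNA per cell cannot be told apart.

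Some of these genes had almost no spliced reads. For each annotated intron the 20 last bases of the upstream exon and the 20 first bases of the downstream exon were joined, and this join was looked for in the pseudogene transcripts of GENCODE M21. The joins of the following members also occur letter for letter in a pseudogene transcript, and were picked because almost no spliced read was placed on them. The downstream exon is in capitals, and every sequence is coding.
Uqcrb join, copy in Gm5457: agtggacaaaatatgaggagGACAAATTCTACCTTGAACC
Uqcrb join, copy in Gm2962: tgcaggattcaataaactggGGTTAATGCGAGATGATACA
Ndufb4 join, copy in Ndufb4c: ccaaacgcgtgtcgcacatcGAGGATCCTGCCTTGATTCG
Cox7c join, copy in Gm10012: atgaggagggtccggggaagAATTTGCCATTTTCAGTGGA
Atp5l join, copy in Gm10221: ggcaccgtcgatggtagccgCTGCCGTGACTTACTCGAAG
Uqcr11 join, copy in Gm16418: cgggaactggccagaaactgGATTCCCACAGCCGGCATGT
The first 5 of these joins had 0 reads in both libraries, and that of Uqcr11 had 0 with IL-10 and 1 untreated. Uqcrb and Uqcr11 encode small subunits of complex III, Ndufb4 an accessory subunit of complex I, Cox7c a subunit of complex IV and Atp5l a membrane subunit of the ATP synthase. For comparison, the joins below had no copy within 2 mismatches and carried many reads.
Ndufb10 join, no copy: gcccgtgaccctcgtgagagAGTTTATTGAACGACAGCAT
Cox8a join, no copy: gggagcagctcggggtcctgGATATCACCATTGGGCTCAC
The Ndufb10 join, over the intron at chr17:24859739-24861131 (mm9, minus strand), had 358 reads with IL-10 and 495 untreated. The Cox8a join, over chr19:7289975-7291888 (mm9), had 444 and 779.

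A pseudogene copy of a join was common among these genes. At least 1 join with a copy of up to 2 mismatches was found in 44 of the 98 members that have introns (44.9%), and in 13.11% of all protein-coding genes with introns. Of 41 introns whose join has an exact copy, 29 (70.73%) had no read, and the median was 0 reads over both libraries. Of 45 introns whose copy differed by 1 or 2 bases, 3 (6.667%) had no read, and the median was 116.0 reads. The 568 introns with no copy had a median of 8.0 reads, with 34.86% at 0, close to the 37.21% at 0 among all 86 introns with a copy of either kind. By gene, 10 of 22 members with an exact copy stayed under 20 reads (Atp5g2, Atp5h, Atp5l, Cox7c, Ndufa12, Ndufb4, Ndufc1, Ndufs5, Uqcr11 and Uqcrb). Of 75 members without one 11 did, and with tissue isoforms and Ndufa4l2 left out 4 of 67 did (Atp5s, Cox5b, Sdhaf3 and Sdhaf4). For these 10 genes a low count is therefore printed without any statement on expression, and whether the copies account for it was not tested.

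**Figure D1:**
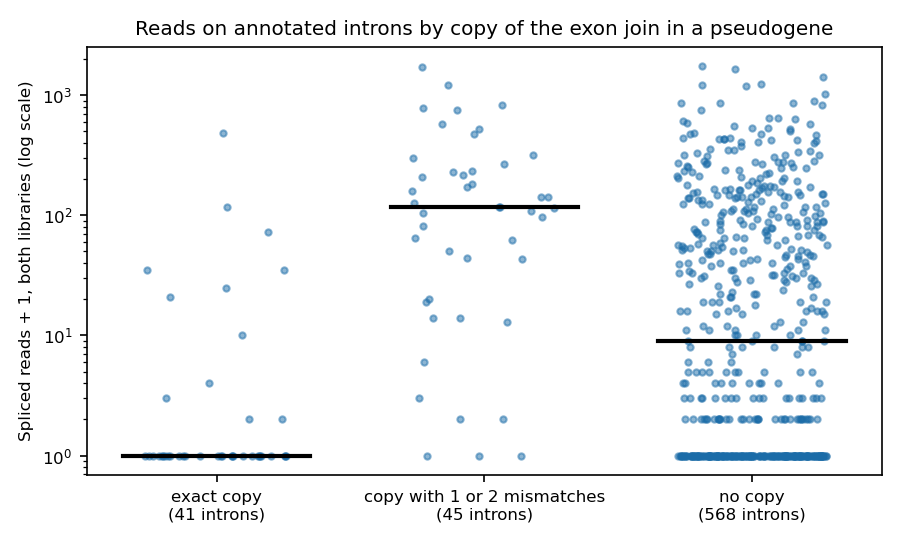
Spliced reads plus 1 over both libraries (log scale) on each annotated intron of the members, by whether the joined exon ends occur in a pseudogene transcript exactly, with 1 or 2 mismatches, or not. Points are introns and bars are medians; the medians are 0, 116.0 and 8.0 reads.

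Of the 99 gene models, 74 were measured, 8 had fewer than 20 reads, 8 had a lone matched junction, 8 had none, and a second Atp5o model shared all of its matched introns with the first. Just inside the minimum lay Ndufs3 and Ndufab1 with 21 reads each, and just outside it Atp5h, Cox7a1 and Sdhaf4 with 19 each. The members took 30197 reads (0.7867% of named reads) with IL-10 and 32683 (0.8452%) untreated. Their summed ratio was 0.931 (0.916 to 0.945). The median ratio of the 74 genes was 0.936, against 0.999 over all 8361 genes.

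None of the 74 measured members differed 2-fold between the libraries. The share of all genes past that fold with an interval that excluded 1 was 1.5% lower and 1.75% higher. At a smaller fold, a ratio of at most 0.8 or at least its inverse with an interval that excluded 1, 7 members were lower with IL-10 (all genes 8.44%) and 8 were higher (8.38%), shares of 9.46% and 10.8%. The count of members past this smaller fold thus lay near the background in each direction. By the interval alone, 18 members (24.3%) lay below 1, against 13.1% of all genes, and 9 lay above it, against 12.9%. The ratio was under 1 in 46 members (62.2%), against 50.1% of all genes. With the trend of the ratio on transcript length and GC content removed it was under 1 in 39 of 74. The median log2 ratio of subunits then came to -0.004 from -0.093, and the cause of this change was not tested.

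The lower side was taken mostly by abundant members. Among the 35 members with at least 500 reads, 27 had a ratio under 1 (all genes 47.5%), 13 had an interval below 1 (all genes 22.3%) and 1, Cox7b, had an interval above 1 (all genes 23.3%). The 8 members with 2000 or more reads had a median ratio of 0.908 and a summed ratio of 0.913 (0.892 to 0.935). The 28 members with 100 to 499 reads had a median ratio of 1.02, and 8 of them (28.57%) had an interval above 1, against 10.38% of all genes of that depth. Among members with at least 500 reads the log2 ratios had an SD of 0.16, against 0.26 over all genes of that depth and 0.09 given by counting alone. With a minimum of 100 reads the SD was 0.298 over 63 members and 0.313 over all genes.

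**Figure D2:**
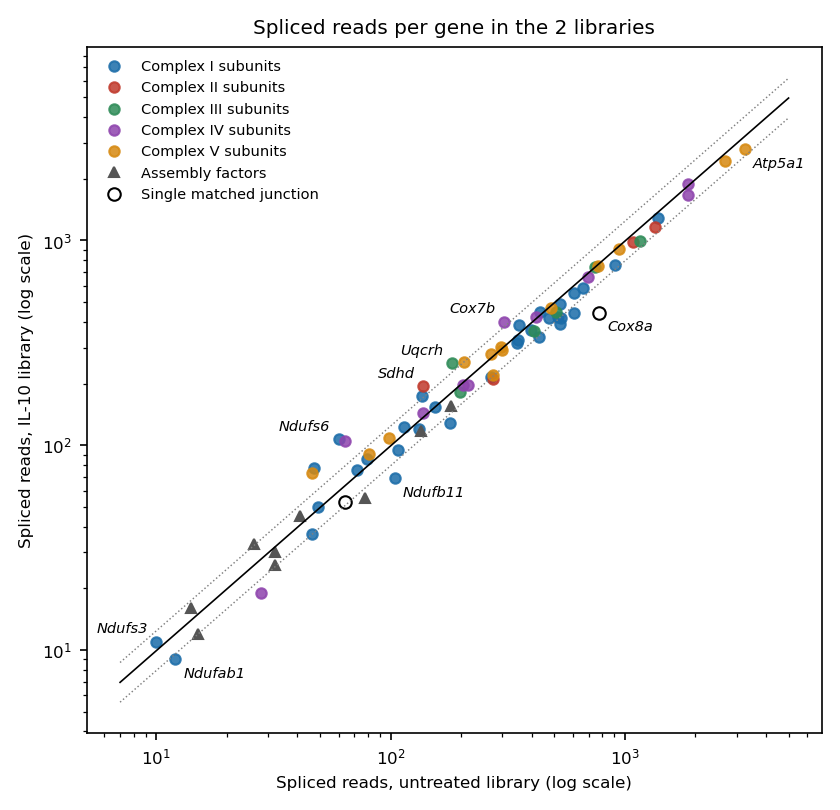
Spliced reads of each member in the untreated library (x axis) and the IL-10 library (y axis), both on log scales, by complex. The solid line marks a ratio of 1 after scaling and the dotted lines a ratio of 0.8 and its inverse; most members with over 500 reads lie on or just below the solid line.

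Complex I, the largest complex, was lower by a small amount in the IL-10 library. Its 32 measured subunits had 9480 reads with IL-10 and 10627 untreated, a summed ratio of 0.899 (0.874 to 0.924), and a median ratio of 0.920. The interval lay below 1 for 10 subunits (31.25%, all genes 13.1%) and above 1 for 3 (9.375%, all genes 12.9%). These subunits had a median of 572.0 reads, against 224.0 over all genes. Among all genes with 500 to 1999 reads the shares were 18.08% below 1 and 21.15% above. The core subunits hold the flavin and the iron-sulfur clusters or bind the quinone. Ndufv1, which carries the NADH site, had 215 and 267 reads (0.811, 0.675 to 0.974), and its iron-sulfur partner Ndufv2 had 758 and 904 (0.845, 0.766 to 0.931). Ndufs7, near the quinone site, had 586 and 661 reads (0.893, 0.798 to 0.9996). These 3 were lower in the IL-10 library by less than the smaller fold. Ndufs1 (315 and 347 reads, 0.9145) and Ndufs8 (367 and 396, 0.934) had intervals that included 1. Ndufs3, with 11 and 10 reads, was too shallow for a direction.

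Accessory subunits of complex I, which surround the core, spread more widely. The 9 measured Ndufb genes, which lie in the membrane arm, had a median ratio of 0.812 and a summed ratio of 0.876 (0.826 to 0.929). Ndufb10 had 440 reads with IL-10 and 605 untreated (0.733, 0.6465 to 0.830). All 3 of its introns pointed the same way, with 358 and 495, 70 and 93, and 12 and 17 reads. Ndufv3, a small subunit of the NADH module, had 391 and 527 reads (0.747, 0.654 to 0.8535), with 3 of 4 introns on that side. Ndufa9, which sits where the peripheral arm meets the membrane, had 416 and 536 reads (0.782, 0.686 to 0.890), and 9 of its 10 introns were on that side. Ndufb3 (129 and 179 reads, 0.726, 0.574 to 0.9155), Ndufb8 (338 and 430, 0.792) and Ndufb11 (69 and 104, 0.668) were lower as well. The difference in Ndufb8 lay on its intron nearest the 5′ end, with 81 reads against 151 (0.540), while its other well-covered introns had 51 and 54, 108 and 115, and 97 and 110.

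Accessory genes higher with IL-10 numbered 3. Ndufs6, a zinc-binding subunit of the peripheral arm, had 107 reads with IL-10 and 60 untreated (1.80, 1.30 to 2.51). Its introns were split: those nearest the 3′ end had 50 and 21 reads and 55 and 25 reads, while those nearest the 5′ end had 2 and 7 and 0 and 7. The join of the intron with 50 and 21 reads occurs exactly in the pseudogene Ndufs6b. Ndufa1, needed for the membrane arm to assemble, had 77 and 47 reads (1.65, 1.13 to 2.425), and Ndufb9 had 173 and 136 (1.28, 1.02 to 1.62). When only the best-covered intron was used, Ndufa1 and Ndufb9 no longer passed, at log2 ratios of 0.64 and 0.41.

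**Figure D3:**
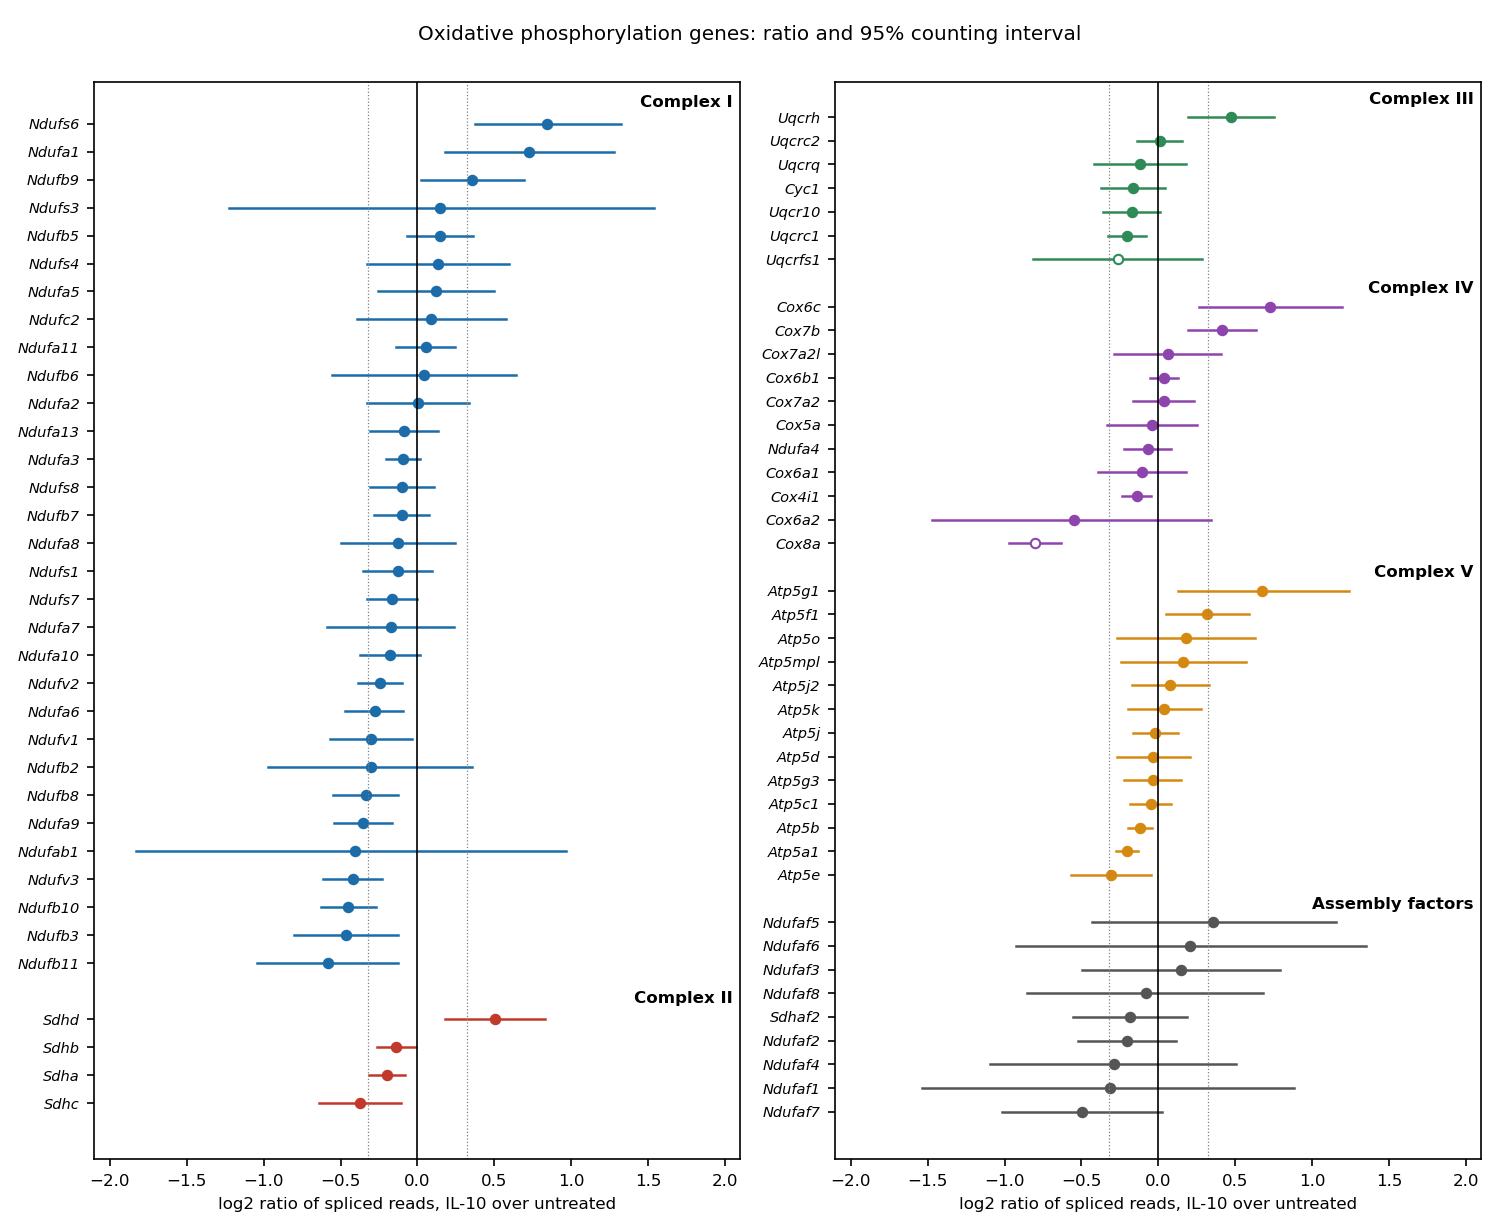
Log2 ratio of spliced reads, IL-10 over untreated, for the members with at least 20 reads that are reported here, by complex, with 95% counting intervals as bars; dotted lines mark a ratio of 0.8 and its inverse. Open points are genes with a lone matched junction, and Cox8a lies farthest to the left among genes with narrow intervals, at 0.574.

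The 4 subunits of complex II, which oxidises succinate, went apart. Sdha, the flavoprotein, had 1160 reads with IL-10 and 1340 untreated (0.872, 0.805 to 0.944). Sdhb, the iron-sulfur subunit, had 982 and 1088 (0.909, 0.833 to 0.992), with all 7 introns under 1. Both catalytic subunits were lower in the IL-10 library by a small amount. Of the membrane anchors, Sdhc had 210 and 274 reads (0.772, 0.642 to 0.9275) and Sdhd had 194 and 138 (1.42, 1.13 to 1.775). Sdhd was higher on each of its 3 introns, with 54 and 33, 76 and 61, and 64 and 44 reads, whereas only 2 of 5 introns of Sdhc were lower. On the single intron with the most reads Sdhd had a log2 ratio of 0.36 and no longer passed, and as the median over introns Sdhc stood at a log2 ratio of 0.01. In Sdha the low values lay towards the 5′ end: introns 2 and 3 had 36 and 79 reads and 55 and 95 reads, and its last 3 had 117 and 116, 107 and 105, and 209 and 216. The plot of reads by intron shows this, and across 49 members with both ends covered the log2 ratio of the last intron exceeded that of the first by a median of 0.09, against 0.01 over 4872 genes, but it was below that of the first in 22 of the 49.

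**Figure D4:**
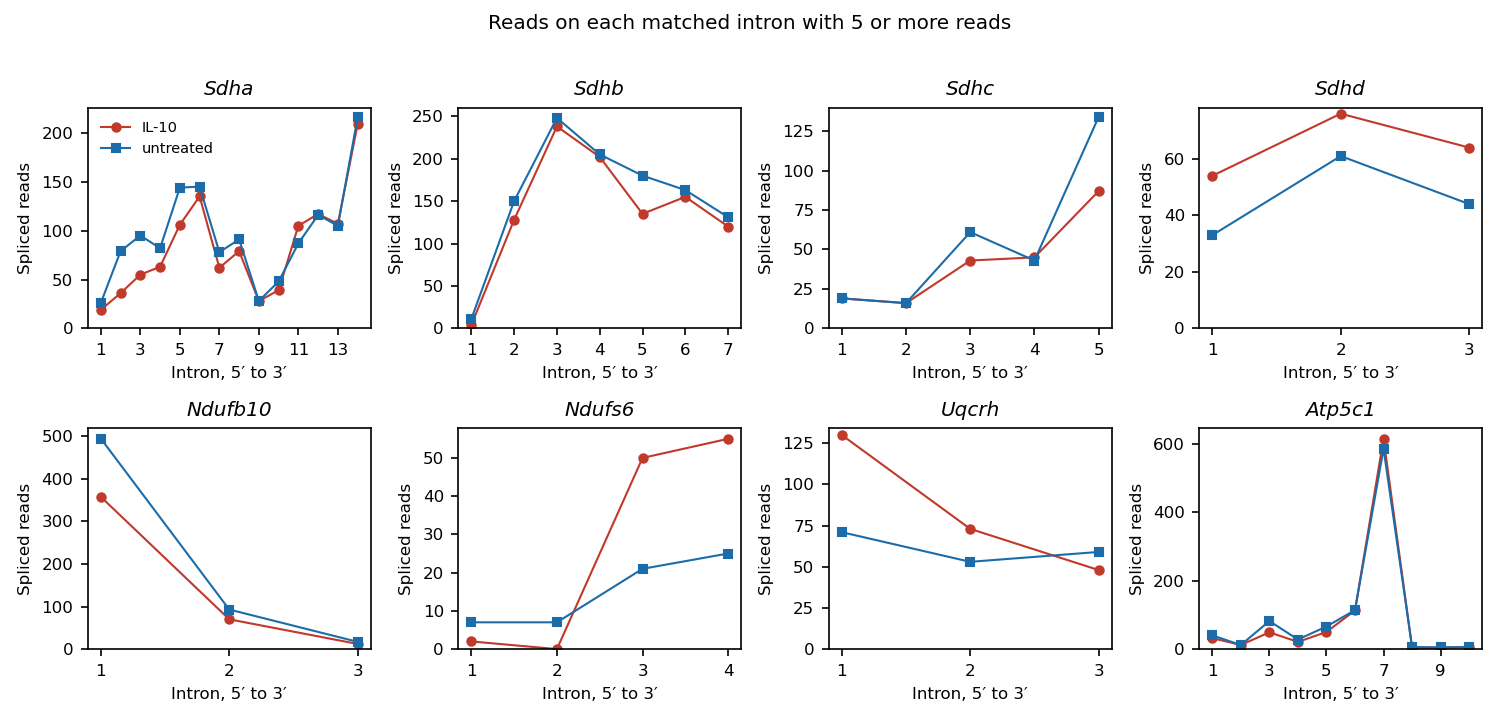
Spliced reads on each matched intron with at least 5 reads, ordered from the 5′ to the 3′ end, in the IL-10 (circles) and untreated (squares) libraries, for 8 members. Sdhd and Ndufb10 keep the same order of libraries on each intron, while Uqcrh, Ndufs6, Sdhc and Sdha do not.

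Complex III showed 1 gene on each side. Uqcrc1, a core protein, had 998 reads with IL-10 and 1160 untreated (0.867, 0.796 to 0.944), while its partner Uqcrc2 had 745 and 746 (1.01, 0.908 to 1.115). Cyc1, the cytochrome c1 subunit, had 363 and 410 reads (0.892, 0.772 to 1.03), and Uqcrfs1, the Rieske iron-sulfur protein, which was read from a lone junction, had 53 and 64 (0.834, 0.5685 to 1.22). Intervals of these 2 catalytic subunits included 1. Uqcrh, the acidic hinge protein, had 252 and 183 reads (1.39, 1.14 to 1.69). Its first intron had 130 and 71 reads, its second 73 and 53, and its last 48 and 59, so the higher value came from the 5′ side. The 6 measured genes had a median ratio of 0.906.

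Complex IV was at 0.995 (0.959 to 1.03) in its summed reads, and its 10 measured subunits had a median ratio of 0.998. Cox6b1 was the most abundant of the 74 measured genes by reads per matched intron (938.0), with 1893 and 1859 reads (1.03, 0.962 to 1.09). Cox4i1, the common isoform of subunit 4, had 1671 and 1857 reads (0.9065, 0.848 to 0.969). Cox7b had 402 and 304 reads (1.33, 1.145 to 1.55), and Cox6c had 105 and 64 (1.65, 1.2 to 2.29). Both were higher in the IL-10 library, Cox7b on both of its introns and Cox6c on 3 of 4. Of the 3 annotated joins of Cox7b, 2 have a pseudogene copy with 1 or 2 mismatches, and 1 of the 5 joins of Cox6c has an exact copy.

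Cox8a, the common isoform of subunit 8, had the lowest ratio of any member with at least 100 reads. It had 444 reads with IL-10 and 779 untreated (0.574, 0.510 to 0.646). It is outside the 74 genes because it has a lone matched junction, so no other intron checks the value. That intron alone held 1223 reads. With lone junctions counted, 8 members instead of 7 were lower at the smaller fold.

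The tissue isoforms of complex IV, which replace the common ones in muscle, lung or testis, were scarce. Cox4i2, Cox7b2, Cox8b, Cox8c and the Ndufa4 relative Ndufa4l2 had no matched junction, Cox6b2 had 2 reads in each library, and Cox7a1 had 9 and 10. Cox6a2, the heart and muscle form, had 19 and 28 reads (0.684, 0.361 to 1.27), against 197 and 214 for the common Cox6a1 (0.927, 0.760 to 1.13). Cox7a2 had 423 and 416 reads (1.02), Cox7a2l, which joins respiratory supercomplexes, 143 and 138 (1.04), and Ndufa4 661 and 699 (0.953), each with an interval that included 1. In these macrophages the reads thus lay on the common isoforms in both libraries.

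In the ATP synthase the catalytic head and the membrane part differed in their summed ratios. The 5 genes of the F1 head had 6654 reads with IL-10 and 7429 untreated (0.902, 0.873 to 0.933). Atp5a1, subunit alpha and the member with the most reads, had 2800 and 3246 (0.869, 0.826 to 0.914), and Atp5b, the catalytic subunit beta, had 2437 and 2664 (0.9215, 0.872 to 0.974). Atp5e, subunit epsilon, had 220 and 274 reads (0.809, 0.674 to 0.969), while the shaft subunits Atp5c1 (906 and 945, 0.966) and Atp5d (291 and 300, 0.977) had intervals that included 1. The 3 measured peripheral stalk genes stood at 1.05 (0.963 to 1.14) and the 3 membrane genes at 1.05 (0.945 to 1.17) in summed reads, and the difference between these groups was not tested. Atp5f1, of the stalk, had 255 and 206 reads (1.247, 1.03 to 1.51), with all 4 introns on that side. Of the c ring genes, which encode one and the same mature protein, Atp5g1 had 73 and 46 reads (1.60, 1.09 to 2.365) and Atp5g3 had 470 and 486 (0.974, 0.856 to 1.11). On its best-covered intron Atp5g1 stood at a log2 ratio of 0.37 and no longer passed.

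Assembly factors, which help to build the complexes without staying in them, were scarce. The 9 measured genes had 491 reads with IL-10 and 554 untreated, a summed ratio of 0.893 (0.789 to 1.01) and a median ratio of 0.881, against a median of 0.938 for the 65 subunits. No factor had an interval that excluded 1. Ndufaf2, with 156 and 181 reads (0.868, 0.696 to 1.08), and Sdhaf2, needed to attach the flavin of Sdha, with 118 and 135 (0.8805, 0.682 to 1.14), were the best covered. Ndufaf7, a methyltransferase, had 55 and 78 reads (0.710, 0.494 to 1.02). Ndufaf1 and Ndufaf6 were the scarcest measured members by reads per matched intron, at 3.86 and 4.29. A difference between assembly factors and subunits was not tested.

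**Figure D5:**
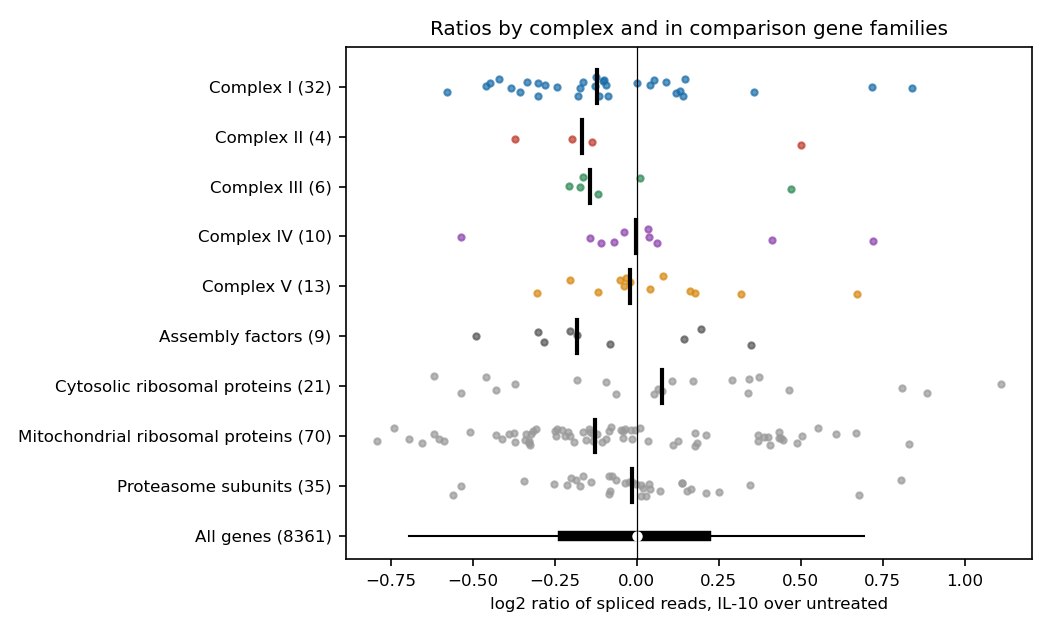
Log2 ratios of spliced reads, IL-10 over untreated, of measured genes by complex, in assembly factors and in comparison families; black bars are medians, numbers in brackets are genes, and the lowest line gives the median (white), middle 50% (thick) and middle 90% (thin) of all genes. Medians of complexes I, II and III lie left of 0, and those of complexes IV and V near 0.

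Other genes of the pathway were read from lists drawn up by function. Of 46 assembly factors outside the symbol rule, 28 were measured, with a median ratio of 1.04 and a median of 85.5 reads. Of these, 1 had an interval below 1 (3.571%, all genes 13.1%) and 2 above (7.143%, all genes 12.9%). Among all genes with 20 to 99 reads these shares were 7.143% below and 6.295% above. Uqcc2, a complex III assembly factor, had 87 and 41 reads (2.14, 1.46 to 3.18), and Cox15, which makes heme a, had 108 and 79 (1.38, 1.02 to 1.865). Cmc2 had 15 and 33 reads (0.458, 0.231 to 0.867). Of 19 electron carriers and genes of quinone synthesis, 17 were measured, with a median ratio of 0.865; 13 had a ratio under 1 (76.47%, all genes 50.1%), 3 had an interval below 1 (17.65%, all genes 13.1%) and 0 above. These 3 were Coq3 (17 and 37 reads, 0.463, 0.244 to 0.843), Coq2 (6 and 17, 0.3555, 0.115 to 0.945) and Coq8b (99 and 132, 0.7555, 0.576 to 0.988). Cycs, the cytochrome c gene, was on the list but was not measured, so the median does not cover it.

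Regulators of mitochondrial gene expression had a median ratio of 1.10 over 14 measured of 16, with 1 interval below 1 (7.143%, all genes 13.1%) and 3 above (21.43%, all genes 12.9%). Pprc1, a coactivator related to PGC-1, had 160 and 101 reads (1.60, 1.24 to 2.07), the mitochondrial RNA polymerase gene Polrmt 103 and 67 (1.55, 1.13 to 2.14), and the RNA-binding protein gene Lrpprc 585 and 507 (1.16, 1.03 to 1.31). Gabpb1, a subunit of the ETS factor GABP, had 9 and 30 reads (0.302, 0.126 to 0.653), while its DNA-binding partner Gabpa had 225 and 227 (0.9985). Nrf1 had 88 and 100 reads (0.8865, 0.658 to 1.19), and Ppargc1a had 1 and 3.

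Comparison families had medians on both sides of 1, and their order differed between medians and summed reads. Of 70 measured mitochondrial ribosomal protein genes, 47 had a ratio under 1 (67.14%, all genes 50.1%), with a median of 0.915 and a summed ratio of 0.988 (0.957 to 1.02). The 35 measured genes with proteasome subunit symbols had a median of 0.9898 and a summed ratio of 0.952 (0.934 to 0.971). They include Psmc3ip (25 reads, log2 ratio 0.807), which matched by symbol alone and is not a proteasome subunit. The 21 measured cytosolic ribosomal protein genes had a median of 1.05 and a summed ratio of 0.914 (0.8965 to 0.932). The members were short, with a median longest transcript of 1232 nt against 3540 nt over all genes, and ratios moved with length between these libraries. Among genes with at least 100 reads the median ratio was 0.9155 for transcripts under 1 kb, 0.948 for 1 to 2 kb, 0.978 for 2 to 4 kb and 1.04 for longer ones. The members' own medians in the 3 shorter classes were 1.001, 0.934 and 0.872, over 25, 21 and 15 genes. They thus fell with length, where those of all genes rose. Removal of the trend on length and GC content over all genes moved the median log2 ratio of complex I from -0.12 to -0.06 and that of complex V from -0.02 to 0.06, and ended the calls of Ndufa9 and Ndufb8. The submitters give insert sizes of 188 bp for the IL-10 library and 197 bp for the untreated one, and their part in the ratios was not tested.

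Reads of a member sat on few introns. The intron with the most reads held a median of 50.8% of a member's reads, against 27.27% over all genes, and members had a median of 105.9 reads per matched intron against 22.33. The share of the top intron depends on how many introns were matched, and genes of like intron number were not compared. At 88 splice sites of 44 members with alternative junctions (204 junctions), 0 junctions changed their share by 20 percentage points with intervals apart, and over all genes 27 of 20246 did (0.133%).

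Promoters are shown for Sdha and Sdhd, subunits of complex II whose ratios lay on opposite sides of 1; Sdhc lay on the side of Sdha. Motifs were searched on both strands in the RefSeq promoter table of build GRCm38.p6, from 250 bases before to 50 bases after a gene's start, where 79 member genes with 84 promoters were found. The NRF1 motif, a palindrome-like run of 10 letters with 1 free position, was in 22 of 84 member promoters (26.19%) and 4.603% of all 32851, the ETS motif CCGGAAG in 21 of 84 and 8.858%, and the YY1 motif AANATGGCG in 14.29% and 2.38%. The ERR motif AAGGTCA was in 9.524% and 4.718%, the SP1 motif GGGCGG in 46.43% and 35.66%, and the NFY motif CCAAT in 41.67% and 37.41%. Matches to different motifs were counted apart, whether or not they overlap. Below, the 250 bases before each start are given, with NRF1 and ETS matches in capitals.
Sdha promoter, chr13:74350241-74350490, minus strand: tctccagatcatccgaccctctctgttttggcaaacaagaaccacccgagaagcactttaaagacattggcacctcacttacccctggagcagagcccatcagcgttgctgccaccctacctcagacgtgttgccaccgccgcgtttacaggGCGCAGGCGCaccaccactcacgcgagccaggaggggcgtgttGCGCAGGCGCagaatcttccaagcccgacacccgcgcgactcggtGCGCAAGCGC
Sdhd promoter, chr9:50603850-50604099, minus strand: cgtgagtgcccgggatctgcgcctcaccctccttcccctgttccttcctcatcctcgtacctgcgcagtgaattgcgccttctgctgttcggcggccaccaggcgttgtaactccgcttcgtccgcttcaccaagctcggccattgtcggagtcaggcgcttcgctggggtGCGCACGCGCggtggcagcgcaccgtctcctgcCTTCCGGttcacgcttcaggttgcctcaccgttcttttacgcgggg
The Sdha promoter held 3 NRF1 matches, and that of Sdhd held 1 NRF1 and 1 ETS match. The Sdhb promoter held 0 matches to the NRF1, ETS, ERR and YY1 motifs in these 250 bases, and 1 ETS match in the full window searched. By direction, the NRF1 motif was in 3 of 15 members with an interval below 1, 2 of 7 above it and 10 of 38 whose interval included 1. These shares were close to each other at such small numbers, and a match is a run of letters, not a measured site.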

How the data were processed

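RNA-seq libraries of IL-10-treated and untreated macrophages (1 each) were used. Both samples carry the same protocol text, so groups came from the sample titles. TopHat, Cufflinks and mm9 are named in the submitters' processing notes, with no versions. Per the file headers, each deposited value is an unscaled count of reads placed across a splice junction.

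Genes were named from GENCODE M21, whose build is later than mm9. To be assigned to a gene, a junction had to equal an annotated intron in chromosome, strand and length, with an offset (up to 20 Mb) found for 2 or more introns of that gene. Of 131057 junctions, 81.4% (98.2% of reads) matched 10772 genes. A further 1640 genes had a lone match and were kept apart. Coordinates of introns are those of the mm9 lists, and promoters are on GRCm38.p6. For log2 ratios 0.5 reads were added to each value, and genes needed 20 reads in the libraries together.

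Named with values were members whose interval excluded 1 (at most 4 in each direction per complex in full), complex II, core subunits, isoform pairs, and up to 4 genes of each other list with the interval bound farthest from 1; other names, and the introns, joins and promoters shown, were chosen after values were seen. A few genes enter the counts but are not reported here by name. The members and lists were chosen with earlier results of these data known. The ratios, their intervals and the calls were tested on simulated Poisson counts per gene, which hold counting error only. The matching of junctions, the search for joins and reads counted on several introns were not simulated. Alternatives covered 17 settings, 2 of them added after the data were seen. They included the TMM factor of edgeR, the size factor of DESeq2, read minimums, single introns, lone junctions, removal of length and GC trend by lowess (fraction 0.3), and a 99% interval. Analyses ran in Python 3.11.15 (statsmodels 0.14.6, pandas 2.3.3, matplotlib 3.10.9, scipy 1.17.1, numpy 2.4.6) and R 4.3.3 (edgeR 4.0.16, DESeq2 1.42.0).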

Additional observations from a re-analysis of the deposited data

Results flagged for a closer look

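A junction outside the annotation at the Uqcr11 locus had reads in the untreated library alone. It runs over chr10:79867035-79869443 (mm9), on the strand opposite to the gene and shifted by 3 bases from an annotated intron of the same length. It had 0 reads with IL-10 and 143 untreated, while the annotated intron had 0 and 1. It was flagged because its reads lie outside the introns counted for the gene. Among matched junctions with at least 20 reads, 69 of 42559 (0.162%) were seen in only 1 library, and 0 of 289 in the members. Among shifted junctions of that depth the numbers were 4 of 271 over all genes, 1 of them this one, and all 4 were among the 114 on the other strand.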

How the results depend on the processing

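No paired analysis was possible because the groups share only replicate number 1. Of the 15 members past the smaller fold, none lost its call with the TMM factor, the DESeq2 size factor, the total of all junction reads, the read minimums, shared introns, lone junctions, a pseudocount of 5 reads, an overhang of at least 10 bases, shifted junctions, or without introns with an exact copy. With the best-covered intron alone 4 lost it (Sdhd, Atp5g1, Ndufa1 and Ndufb9), the higher count fell to 4, the median log2 ratio of complex II came to -0.005, and 1 member passed 2-fold. As the median over introns with at least 20 reads, Ndufb8 and Sdhc lost it, Sdhc at a reversed log2 ratio of 0.011, and 1 member passed 2-fold. With shifted junctions 1 member, Uqcr11, passed 2-fold. Removal of the length and GC trend ended the calls of Ndufa9 and Ndufb8 and left 39 members under 1 in place of 46, a 99% interval those of Atp5g1, Ndufb9 and Ndufb11, and leaving out introns with a copy of up to 2 mismatches that of Ndufb8, with 12 of the 15 left to check (Cox7b, Ndufs6 and Ndufb11 had too few reads then). The cause of these changes was not tested. Among members with an interval above 1, Ndufs6, Cox6c, Atp5f1 and Atp5g1 had joins with an exact pseudogene copy. Uqcrh and Cox7b had copies with 1 or 2 mismatches. Among those with an interval below 1, Ndufb3, Ndufb8, Ndufb11, Ndufv2 and Atp5b had copies with 1 or 2 mismatches. The part of the copies in the direction of the ratios was not tested. With 1 library per group, no replicate could be left out.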

Other observations

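Other members had junctions of annotated length that sat a few bases off an annotated intron. For Uqcrh such a junction lay at chr4:115742633-115743344 (mm9), shifted by 3 bases, with 46 reads with IL-10 and 12 untreated, beside 73 and 53 on the annotated intron. For Cox7b a junction shifted by 2 bases upstream had 28 and 24 reads beside 101 and 81. For Atp5b, a junction on the other strand had 15 and 26 reads beside 96 and 79, and one on the gene's strand had 13 and 23 beside 284 and 246. These reads are not in the gene sums given above.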
